A study of Homo sapiens with 14 samples.

Results

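The genes described here are 10 members of the Krüppel-like factor (KLF) family, KLF2, KLF3, KLF4, KLF5, KLF6, KLF7, KLF9, KLF10, KLF11 and KLF13, out of 60876 genes with a transcript in the files. They were taken by gene symbol, and the family was chosen on values of these same libraries, the low level of KLF6 in CX-5461 labelled 10 min against the control among them. That contrast is therefore given as a description. The other comparisons that use the CX-5461 libraries labelled 10 min, and those that use the same 2 control libraries, are not independent of it. All 10 genes passed the filter on low counts, which left 15426 genes for testing. KLF7 and KLF9 were the sparsest, with between 0 and 125 and between 9 and 64 estimated reads per library.

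The RNA came from MDA-MB-231, a breast cancer cell line of mesenchymal character. Cells were grown without treatment in the control (the study's results call it a DMSO control) or given 5 µM RBI2 or 5 µM CX-5461. Each compound was sampled in groups labelled 10, 30 and 120 min, which with the control made 7 groups of 2 libraries and 14 libraries in all. The deposited files carry the numbers 02, 10 and 30 for the groups labelled 10, 30 and 120 min, so the exposure behind each label is uncertain and groups are called by their labels. CX-5461 is a known inhibitor of transcription by RNA polymerase I, and RBI2 is a small molecule that the study examined as an inhibitor of ribosome biogenesis. All libraries come from 1 cell line, and nothing says that the replicates were separate cultures, so p-values measure the spread between these libraries, which may be technical.

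KLF proteins are transcription factors that bind GC-rich and CACCC sequences through zinc fingers at their C-terminal end, and they differ mainly in the N-terminal part that recruits cofactors. One group binds the corepressor CtBP (KLF3 here), one holds the activators (KLF2, KLF4, KLF5, KLF6 and KLF7 here), and one binds the corepressor SIN3 (KLF9, KLF10, KLF11 and KLF13 here). Several of them, among them KLF2, KLF4, KLF6 and KLF10, are known as early response genes with short-lived transcripts. In bulk RNA, fewer cells with a transcript and less of it per cell cannot be told apart.

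The start sites of the members differed in base composition. RefSeq windows of 300 bases, 250 before and 50 after a start site on GRCh38.p14, were used for 8 of the 10 members (13 windows). None was used for KLF3 and KLF10. The window of KLF6, which was lower in CX-5461 labelled 10 min than in the control, is printed 5′ to 3′ on the gene's own strand. So are those of KLF4, KLF9, KLF11 and KLF13, which were higher there. KLF10 was higher there too, and its start site is not described. Capitals mark the motifs found on either strand. These are the GC box, with the letters GGGCGG, and the box named for its own letters, CACCC. The E-box was searched as CACGTG and the cAMP response element as TGACGTCA. The TATA box was searched as TATAAA and the CArG box by its usual definition, and neither occurs in the printed windows. The KLF6 window is chr10:3785160-3785459 (minus strand), KLF4 chr9:107489720-107490019 (minus), KLF9 chr9:70414608-70414907 (minus), KLF11 chr2:10043579-10043878 (plus, upstream start) and chr2:10043971-10044270 (plus, downstream start) and KLF13 chr15:31326585-31326884 (plus).
KLF6: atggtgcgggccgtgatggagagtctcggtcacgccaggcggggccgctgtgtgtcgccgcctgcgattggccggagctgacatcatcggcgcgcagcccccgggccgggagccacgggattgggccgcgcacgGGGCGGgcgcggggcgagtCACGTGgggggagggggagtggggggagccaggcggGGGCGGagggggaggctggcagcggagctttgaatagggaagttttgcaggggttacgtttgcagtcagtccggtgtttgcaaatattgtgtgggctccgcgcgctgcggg
KLF4: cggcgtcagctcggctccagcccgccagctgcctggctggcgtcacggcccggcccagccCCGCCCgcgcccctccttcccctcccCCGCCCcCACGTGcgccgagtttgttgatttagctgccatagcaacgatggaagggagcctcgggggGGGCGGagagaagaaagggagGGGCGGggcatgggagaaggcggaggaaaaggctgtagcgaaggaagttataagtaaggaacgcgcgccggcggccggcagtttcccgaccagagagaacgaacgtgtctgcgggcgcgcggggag
KLF9: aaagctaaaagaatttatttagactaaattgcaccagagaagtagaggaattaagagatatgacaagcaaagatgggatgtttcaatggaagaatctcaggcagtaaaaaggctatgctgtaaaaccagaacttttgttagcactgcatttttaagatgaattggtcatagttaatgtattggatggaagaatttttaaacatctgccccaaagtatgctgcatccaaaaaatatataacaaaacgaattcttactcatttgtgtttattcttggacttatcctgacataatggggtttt
KLF11 upstream start: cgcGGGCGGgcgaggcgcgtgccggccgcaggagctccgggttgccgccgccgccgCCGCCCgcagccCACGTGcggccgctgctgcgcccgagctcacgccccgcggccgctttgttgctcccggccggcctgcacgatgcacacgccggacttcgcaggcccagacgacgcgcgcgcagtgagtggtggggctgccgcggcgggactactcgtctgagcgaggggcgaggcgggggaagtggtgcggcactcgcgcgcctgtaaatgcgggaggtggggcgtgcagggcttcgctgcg
KLF11 downstream start: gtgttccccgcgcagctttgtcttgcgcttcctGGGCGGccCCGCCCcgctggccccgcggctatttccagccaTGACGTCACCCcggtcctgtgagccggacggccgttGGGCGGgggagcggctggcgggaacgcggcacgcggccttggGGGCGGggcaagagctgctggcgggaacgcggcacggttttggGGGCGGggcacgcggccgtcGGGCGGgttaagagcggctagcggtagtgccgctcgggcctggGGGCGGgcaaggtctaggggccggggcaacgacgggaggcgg
KLF13: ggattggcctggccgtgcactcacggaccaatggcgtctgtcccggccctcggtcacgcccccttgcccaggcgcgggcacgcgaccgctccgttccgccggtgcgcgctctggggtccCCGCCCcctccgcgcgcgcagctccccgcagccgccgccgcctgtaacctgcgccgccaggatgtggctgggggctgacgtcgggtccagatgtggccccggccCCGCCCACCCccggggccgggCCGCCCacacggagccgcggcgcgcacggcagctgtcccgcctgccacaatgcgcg

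The KLF6 window held 2 GC boxes and 1 E-box and was 70.7% GC, and the KLF4 window 4 GC boxes and 1 E-box at 69.0% GC. The upstream KLF11 window held 2 GC boxes and 1 E-box at 77.3% GC, and the downstream one 7 GC boxes, 1 CACCC box and 1 cAMP response element at 75.3% GC. The KLF13 window held 3 GC boxes and 1 CACCC box, which shares a base with a GC box, at 78.3% GC. The KLF9 window, at 32.7% GC, held none of the 6 motifs. Among all 35116 windows of the RefSeq table, 45.0% held a GC box, 59.9% a CACCC box, 7.26% an E-box, 1.85% a cAMP response element, 11.5% a TATA box and 1.29% a CArG box. The start sites of the KLF6, KLF9 and KLF13 windows and of the upstream KLF11 window are those of the transcript that took the most reads of the gene, whereas KLF4-205 starts 1322 bases downstream of the KLF4 site. A match of letters is a description and not a binding site, and GC boxes stood in windows of genes that were lower and of genes that were higher in the same libraries.

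Library totals lay between 14112299 and 24849354 estimated reads. The mesenchymal markers VIM, CD44, FN1 and MSN were high in every library (FN1, the lowest, at 32.0 to 61.0 TPM, a deposited unit that is corrected for length), and the hormone receptor genes ESR1 (0 to 0.205 TPM) and PGR (0) and the E-cadherin gene CDH1 (0 to 0.285 TPM) were near 0, whereas ERBB2 (14.8 to 22.9 TPM), EPCAM (11.4 to 22.4 TPM) and KRT8 (294 to 423 TPM), listed as low in this line, were not. The 6 markers of leukocytes, endothelial cells, red cells and melanocytes summed to between 2.49 and 4.06 TPM, with 3.22 to 3.28 in the control and 2.49 to 3.32 in CX-5461 labelled 10 min. Most of this was the melanocyte marker MITF, at 2.27 to 3.49 TPM, and each of the others was at 0.682 TPM or less. Control replicate 2 held 20.6% of its reads in mitochondrial genes, against 8.14% to 11.3% in the other libraries, and the same 2 control libraries enter every comparison with the control.

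Per length, KLF6 and KLF10 were the most abundant members. In the control, the TPM summed over all transcripts was 38.4 ± 9.93 for KLF6 (SD, n = 2, as for all means here) and 29.5 ± 4.86 for KLF10, a zinc finger factor known as TGF-beta-inducible early gene 1. KLF5 followed with 13.1 ± 0.049 TPM, KLF2 with 9.94 ± 0.216, KLF13 with 8.50 ± 1.71, KLF3 with 7.57 ± 0.608, KLF11 with 6.27 ± 2.46 and KLF4 with 6.24 ± 2.42. KLF7 (0.792 ± 0.211 TPM) and KLF9 (0.271 ± 0.0682 TPM) were lowest. The libraries of KLF6 and KLF10 overlapped, as did those of KLF13, KLF3, KLF11 and KLF4, so these neighbours did not differ beyond their spread. In protein-coding transcripts alone 6 of the 10 kept their place, and KLF13 moved from place 5 to place 8 with 1.53 ± 0.631 TPM. In CX-5461 labelled 10 min KLF10 was in place 1 with 64.1 ± 1.06 TPM and KLF6 in place 6 with 10.6 ± 1.13 TPM, and KLF10 was also first in RBI2 labelled 10 min (52.9 ± 0.487 TPM) and in CX-5461 labelled 120 min (54.0 ± 7.48 TPM against 38.0 ± 4.11 for KLF6). KLF6 was first in the other 3 treated groups.

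**Figure D1:**
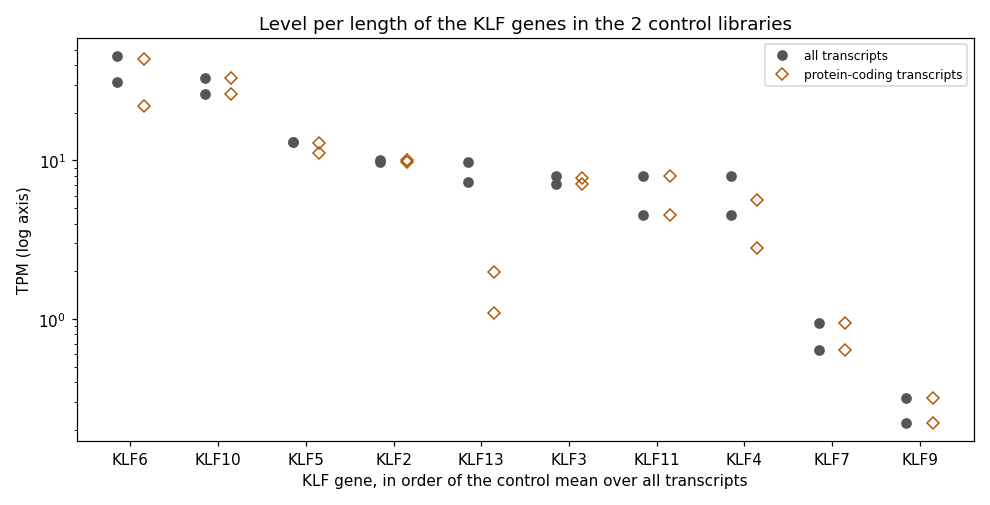
Level per length of the 10 KLF genes in the control, in TPM on a log axis, with a point for each of the 2 control libraries, filled for all transcripts and open for protein-coding transcripts. KLF6 (38.4 TPM) and KLF10 (29.5 TPM) are highest and KLF9 (0.271 TPM) lowest, and KLF13 is lower in its protein-coding transcripts (1.53 TPM) than over all of them (8.50 TPM).

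Levels of one gene between libraries are given from here on in CPM, the share of the library's counts scaled by TMM, which is not corrected for length. KLF6, an activator and tumour suppressor known to be induced early by growth signals and injury (ENSG00000067082, chr10:3775996-3785281 on GRCh38), varied most among the well-expressed members. It stood at 141 and 126 CPM in the control, at 35.8 and 31.0 in CX-5461 labelled 10 min, at 134 and 133 in the group labelled 30 min and at 115 and 122 in the group labelled 120 min. With RBI2 it stood at 88.4 and 81.8 CPM in the group labelled 10 min, at 170 and 160 in that labelled 30 min and at 180 and 169 in that labelled 120 min. Both compounds were thus below the control in their groups labelled 10 min, CX-5461 further than RBI2, and both RBI2 groups with later labels were above all control libraries. The libraries of neighbouring groups overlapped only between RBI2 labelled 120 and 30 min and between CX-5461 labelled 30 min and the control. The transcript KLF6-206 held 94.1% to 98.9% of the KLF6 reads in each library.

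KLF4, an activator and repressor best known as a reprogramming factor (chr9:107484852-107490482), had 11.4 and 10.5 CPM in the control and 18.8 and 16.0 CPM in CX-5461 labelled 10 min. Its levels were 13.4 and 13.1 CPM in CX-5461 labelled 30 min and 13.8 and 15.6 CPM in that labelled 120 min, and between 10.3 and 13.2 CPM in the 6 RBI2 libraries. All CX-5461 libraries were above both control libraries, and the RBI2 libraries labelled 10 and 120 min overlapped the control. KLF2, a regulator of quiescence in endothelial and T cells (chr19:16324826-16328685), had 12.4 and 9.90 CPM in the control and its highest group mean, 15.3 ± 0.144 CPM, in RBI2 labelled 10 min. All other KLF2 libraries lay between 10.5 and 16.0 CPM.

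KLF5, an activator of proliferation genes in epithelia (chr13:73054976-73077541), had 21.7 and 36.3 CPM in the 2 control libraries, which spanned the values of 7 of the 12 treated libraries. In the treated groups it lay between 25.3 and 29.1 CPM in those labelled 10 min and between 18.8 and 22.2 CPM in those labelled 30 min and in RBI2 labelled 120 min. KLF3, a repressor that works with CtBP (chr4:38664197-38701517), had 21.8 and 36.7 CPM in the control, between 26.1 and 29.1 CPM in the groups labelled 10 min and 20.2 and 19.4 CPM in RBI2 labelled 120 min. KLF3 and KLF5 had their higher control value in control replicate 2, and their TPM there was close to that of control replicate 1 (8.0 against 7.14 for KLF3 and 13.12 against 13.05 for KLF5). The part of the mitochondrial share in this gap was not tested.

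KLF7, an activator known from neuronal development (chr2:207074137-207173856), was too sparse for its groups to be ordered. It had 7 and 81 reads in the control (0.435 and 6.47 CPM), 11 and 0 reads in CX-5461 labelled 30 min (0.732 and 0 CPM, where 3 reads correspond to 0.191 CPM in the library at 0), and between 24 and 125 reads in the other groups (1.74 to 5.75 CPM). The transcript KLF7-201 held all of these reads in some libraries and none in others.

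KLF10 (chr8:102648784-102655725), a SIN3-binding repressor induced by TGF-beta, had 57.2 and 81.8 CPM in the control and 114 and 110 CPM in CX-5461 labelled 10 min. It had 93.2 and 101 CPM in RBI2 labelled 10 min and 88.5 and 102 CPM in CX-5461 labelled 120 min. The other 3 treated groups had between 63.4 and 72.0 CPM, within the range of the control in CPM. In TPM control replicate 2 was instead the lower one, at 26.1 against 33.0 in replicate 1. All treated libraries were above both in TPM, the lowest at 36.45 (CX-5461 labelled 30 min, replicate 2). The cause of this gap between the units was not tested. KLF11, its closest relative and the second TGF-beta-inducible early gene (chr2:10042849-10054836), had 20.1 and 21.3 CPM in the control, the lowest levels of all libraries. It had 31.8 and 33.1 CPM in CX-5461 labelled 10 min, 32.4 and 29.5 CPM in RBI2 labelled 10 min and 31.2 and 34.0 CPM in CX-5461 labelled 120 min. The remaining KLF11 libraries lay between 21.7 and 27.8 CPM.

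KLF13, a SIN3-binding factor known as a regulator of RANTES in T cells (chr15:31326835-31435665), had 13.2 and 12.5 CPM in the control and 20.2 and 22.4 CPM in CX-5461 labelled 10 min. Its 6 RBI2 libraries lay between 16.3 and 17.6 CPM and its other 4 CX-5461 libraries between 13.3 and 19.0 CPM. All 12 treated libraries were thus above the control in CPM. Per kilobase of effective length the control mean was 7.54 CPM. The CX-5461 means were then 10.8, 7.65 and 6.1 at the labels 10, 30 and 120 min. Those of RBI2 were 6.81, 7.42 and 7.24, so the direction turned on this measure for RBI2 and for CX-5461 labelled 120 min. This length leans on KLF13-204, which has no defined coding sequence. In the control it held 26.25 and 23.75 reads but 79.6% and 85.1% of the KLF13 TPM. In TPM of protein-coding transcripts alone the control mean was 1.53, below all treated groups. The RBI2 means were 2.57, 2.85 and 2.71 there, and those of CX-5461 3.10, 2.10 and 2.66. KLF9, a SIN3-binding factor known to respond to glucocorticoid and thyroid hormone (chr9:70384604-70414657), had the lowest mean level of the members in the control. It had 17 and 15 reads in the control (1.06 and 1.20 CPM) and 60 and 64 reads in CX-5461 labelled 10 min (3.23 and 3.56 CPM), whereas every other library held between 9 and 24 reads (0.572 to 1.48 CPM).

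**Figure D2:**
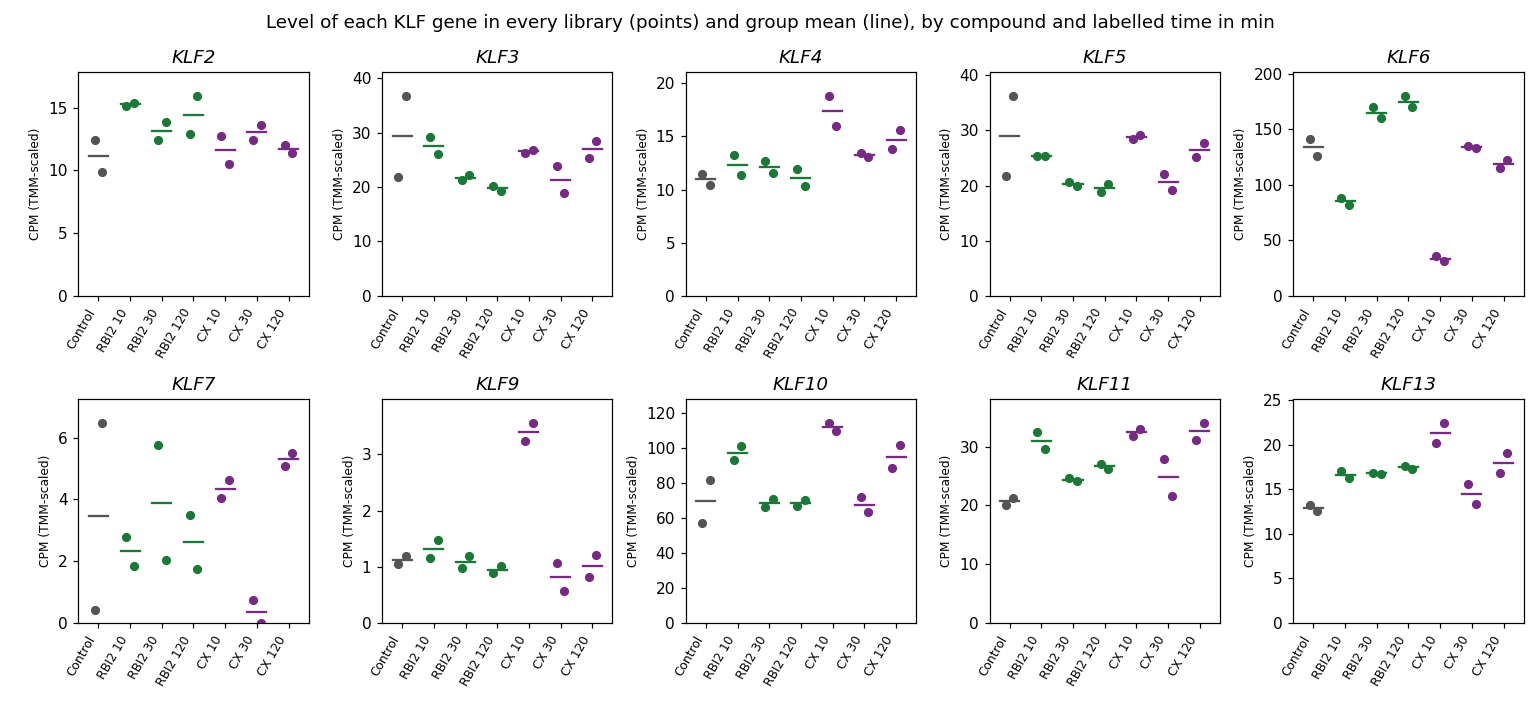
CPM (TMM-scaled, linear axis from 0) of each KLF gene in every library, with points for the 2 libraries of a group and a line for their mean, in grey for the control, green for RBI2 and purple for CX-5461 (CX). KLF6 is lowest (35.8 and 31.0 CPM) and KLF9 highest (3.23 and 3.56 CPM) in CX-5461 labelled 10 min.

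Reads were spread over transcripts in ways that bear on the gene totals. KLF4-205, annotated as a retained intron, held 34.9% to 57.5% of the KLF4 reads in each library, and the protein-coding KLF4-206 held 33.6% to 57.6%. The KLF11 reads were assigned wholly to KLF11-206 in control replicate 1 and wholly to KLF11-201 in control replicate 2, and KLF11-206 held 63.2% or more in every treated library. Both are protein-coding. For KLF13 the protein-coding transcripts held only 14.9% to 40.4% of the TPM, while KLF13-201, one of them, held 84.9% to 95.5% of the reads. KLF10-201 held 93.5% to 99.5% of the KLF10 reads, and KLF9 has 1 transcript in the files.

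**Figure D3:**
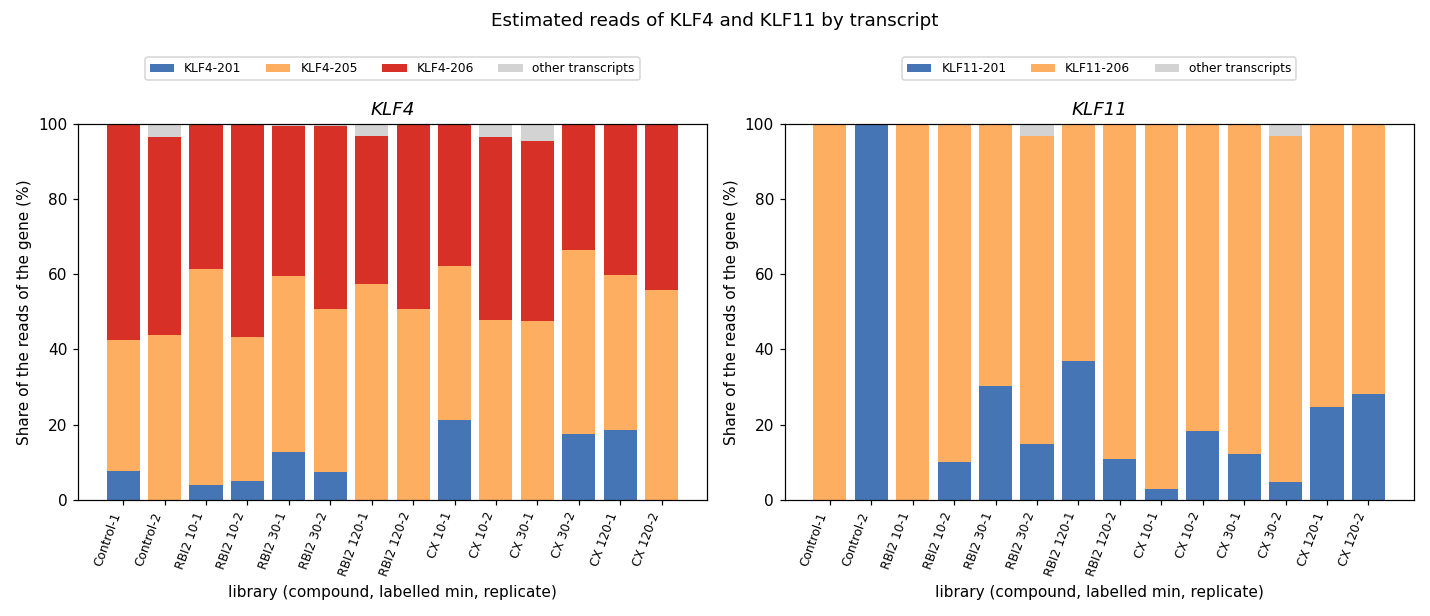
Share of the estimated reads of KLF4 and KLF11 (in %, stacked to 100) by transcript in each of the 14 libraries. The retained intron KLF4-205 held 34.9% to 57.5% of the KLF4 reads, and KLF11-201 held 100% in control replicate 2 and 0% in control replicate 1.

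The comparison of CX-5461 labelled 10 min with the control holds the values on which the family was chosen, so its members are described without a p, and nothing is read from the counts of calls, which stand here for reference only. A call means here that edgeR's quasi-likelihood F test gave a p under 0.05, adjusted over all 15426 genes by Benjamini and Hochberg's method, and that the log2 difference was 1 or more in size. Of the 10 members 2 were called, against 1.64% of all genes, with KLF6 lower (0.888% of all genes were called lower) and KLF9 higher (0.752% were called higher). The log2 fold change was -2.0 ± 0.0945 (SE) for KLF6, a level 4.0 times lower, and 1.59 ± 0.31 for KLF9, a level 3.01 times higher. KLF13 (0.72 ± 0.11), KLF10 (0.69 ± 0.15), KLF4 (0.67 ± 0.13) and KLF11 (0.65 ± 0.12) had the next highest values. KLF4, KLF9, KLF10, KLF11 and KLF13 were higher in both libraries than in both control libraries, KLF6 was lower in both, and KLF2, KLF3, KLF5 and KLF7 overlapped the control. The members' median log2 fold change was 0.51 against -0.036 over all genes tested. Both calls were lost with the libraries of the comparison alone in the model, where 0.0208% of all genes were called, and that of KLF9 also without control replicate 2 or either of the CX-5461 libraries.

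The shares of all genes called, given beside the members' counts, rest on single libraries. Without control replicate 1 the genes called against the control went from 253 to 1354 in CX-5461 labelled 10 min, from 0 to 1143 in that labelled 30 min and from 7 to 611 in that labelled 120 min. For RBI2 they went from 12 to 724, from 6 to 1071 and from 280 to 1335 in the same order of labels. The lowest counts on leaving out 1 library were 129 in CX-5461 labelled 10 min (without its replicate 1), 2 in that labelled 120 min (without its replicate 2), 7 in RBI2 labelled 10 min (without either of its libraries), 0 in that labelled 30 min and 24 in that labelled 120 min (each without its replicate 1).

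In the comparison of RBI2 labelled 10 min with the control 0 of the 10 members were called by edgeR's quasi-likelihood test, against 0.0778% of all genes. An unadjusted p under 0.05 with the same fold limit gave 0 (1.94% of all genes), and DESeq2 called 0 (0.233%). KLF6 was lower by -0.65 ± 0.0903 on the log2 scale, in 2 of 2 libraries, and was the 1 member past the adjusted p alone, where 0.0648% of all genes were lower. The difference is taken against the same control libraries on which KLF6 stood out in CX-5461 labelled 10 min, so it is given as a description. It missed the threshold in 10 of 23 alternatives, among them a correction for GC content and length (adjusted p = 0.0601), an offset for transcript length (0.0679), the libraries of the comparison alone (0.88) and the loss of either RBI2 library labelled 10 min or of 1 of 5 other treated libraries. KLF11 (0.58 ± 0.118, adjusted p = 0.109 by edgeR) and KLF10 (0.49 ± 0.145, adjusted p = 0.245) had libraries above both controls and did not pass. So had KLF2 (0.45 ± 0.149, adjusted p = 0.284 by edgeR) and KLF13 (0.37 ± 0.11, adjusted p = 0.245). KLF9, at 0.23 ± 0.334, overlapped the control. The median was 0.20 over the members and 0.0051 over all genes.

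The later labels held no called member against the control. With RBI2 labelled 30 min 0 of 10 were called by edgeR, against 0.0389% of all genes. With an unadjusted p and the fold limit 0 passed (2.21% of all genes), and DESeq2 called 0 (0.123%). The members' median was 0.19 against -0.0075. With RBI2 labelled 120 min 0 of 10 were called by edgeR, against 1.82% of all genes, 0 with an unadjusted p and the fold limit (3.65%) and 0 by DESeq2 (1.02%). The median was 0.0026 against 0.012. KLF6 (0.39 ± 0.0893) and KLF13 (0.44 ± 0.11) were higher past edgeR's adjusted p there, as 8.9% of all genes were, so that 2 of 10 members stood beside a large background, and both are again set against the control libraries of the choice. Neither held without control replicate 2 (adjusted p = 0.066 for KLF6 and 0.078 for KLF13 by edgeR), without either RBI2 library labelled 120 min or with the libraries of the comparison alone. KLF6 also missed the threshold with an offset for transcript length and with a correction for GC content and length, with or without the replicate block. The KLF13 difference was -0.016 with the length offset, and KLF13 missed the threshold without the filter on low counts.

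With CX-5461 labelled 30 min 0 of the 10 members were called by edgeR's test, against 0% of all genes. With an unadjusted p and the fold limit 1 passed, KLF7 (2.15% of all genes), and DESeq2 called 0 (0.0972%). KLF6 was within the range of the control (log2 difference 0.0029 ± 0.0894), and the lowest fitted value, -3.18 ± 1.22 for KLF7 (adjusted p = 0.213 by edgeR), rested on 11 and 0 reads against 7 and 81. With CX-5461 labelled 120 min 0 of 10 were called by edgeR, against 0.0454% of all genes, 0 with an unadjusted p and the fold limit (1.87%) and 0 by DESeq2 (0.233%). KLF11 was at 0.65 ± 0.117 there (adjusted p = 0.133 by edgeR), KLF13 at 0.47 ± 0.108 (0.265), KLF10 at 0.46 ± 0.145 (0.307) and KLF4 at 0.42 ± 0.131 (0.298). Each was above both control libraries in CPM, whereas KLF6, at -0.17 ± 0.0893 (adjusted p = 0.45 by edgeR), was below both. The members' median was -0.016 in the group labelled 30 min, against -0.046 over all genes, and 0.24 in that labelled 120 min, against 0.055.

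**Figure D4:**
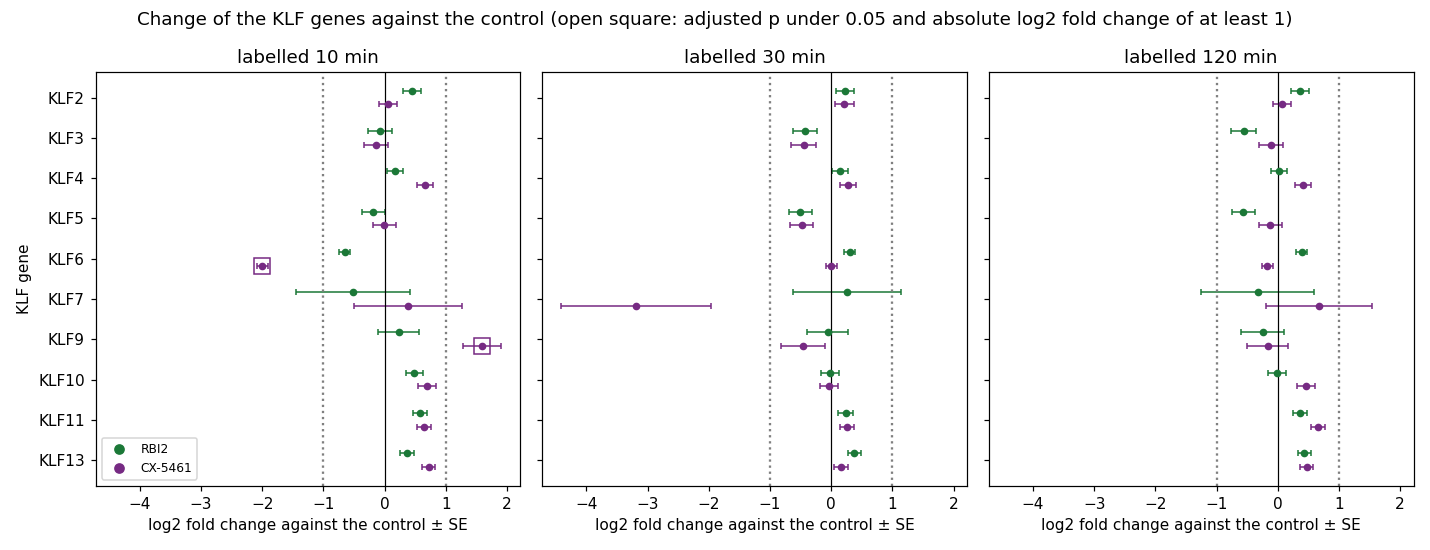
Log2 fold change of the 10 KLF genes against the control ± SE, in panels for the groups labelled 10, 30 and 120 min, with RBI2 in green and CX-5461 in purple. Dotted lines stand at the limit of 1 and open squares mark called genes, KLF6 (-2.0) and KLF9 (1.59) with CX-5461 labelled 10 min.

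The compounds were next compared with each other at the same label, where the control libraries enter only the spread that all groups share. In the groups labelled 10 min 2 of the 10 members were called, against 1.04% of all genes (160 genes, and 95 without RBI2 replicate 2). KLF6 was higher with RBI2 than with CX-5461 by 1.35 ± 0.0936 on the log2 scale, 2.55 times, where 0.635% of all genes were called higher, and KLF9 was lower by -1.36 ± 0.302, where 0.402% were called lower. Both differences share the CX-5461 libraries labelled 10 min with the values the family was chosen on, so they too are a description and nothing is read from their count. The KLF9 call was lost in 10 of 23 alternatives, with DESeq2, with the length offset and on leaving out any 1 of 8 libraries (those of both compounds labelled 10 min and those of RBI2 labelled 30 and 120 min). KLF4, at -0.50 ± 0.128, and KLF13, at -0.36 ± 0.106, had libraries that did not overlap and were not called. So had KLF10, at -0.20 ± 0.143, KLF5, at -0.18 ± 0.184, and the sparse KLF7, at -0.89 ± 0.889. The same held in the other direction for KLF2, at 0.40 ± 0.146, whereas KLF3, at 0.058 ± 0.198, and KLF11, at -0.068 ± 0.114, overlapped. The members' median was -0.19, against 0.0089 over all genes.

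In the groups labelled 30 min 0 of the 10 members were called between the compounds by edgeR's test, against 0.013% of all genes (2 genes, a count that moved on leaving out 1 library). With an unadjusted p and the fold limit 1 passed (1.45% of all genes), and DESeq2 called 0 (0.0648%). The median was 0.019 against 0.0078. In those labelled 120 min 0 were called by edgeR, against 1.67% of all genes (258 genes, a count that moved far both ways on leaving out 1 library). With an unadjusted p and the fold limit 0 passed (3.67% of all genes), and DESeq2 called 0 (0.94%). KLF6 was higher with RBI2 by 0.56 ± 0.0892 (adjusted p = 0.00735 by edgeR, 180 and 169 against 115 and 122 CPM) and KLF10 lower by -0.47 ± 0.145 (adjusted p = 0.0499, 66.7 and 70.6 against 88.5 and 102 CPM). By the adjusted p alone 5.28% of all genes were higher and 10.9% lower in this comparison, so 1 of 10 in each direction is close to the background. KLF6 missed the threshold without CX-5461 labelled 120 min replicate 2 and without either RBI2 library of that label (adjusted p of 0.0677 or less by edgeR), and KLF10 when any treated library was left out. The median was -0.34 over the members and 0.0055 over all genes.

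Across the labels of one compound, a gene was called with an adjusted p under 0.05 and a log2 spread of its group means of at least 1. Across RBI2 labelled 10, 30 and 120 min 1 of the 10 members was called, against 0.363% of all genes (56 genes, 8 without RBI2 labelled 120 min replicate 2 and 160 without control replicate 2). This was KLF6, which rose from 85.1 ± 4.67 CPM to 165 ± 7.05 and 175 ± 7.39 CPM, a spread of 1.04 (adjusted p = 0.00117 by edgeR's test over 3 groups). This contrast is between RBI2 groups alone, with the other libraries entering only the shared spread, and DESeq2 also called 1 member (0.493% of all genes). The members were chosen with earlier results of these libraries known, so this call too is a description and nothing is read from its count. The spread was 0.98 without RBI2 labelled 10 min replicate 2, under the limit of 1. The other 9 members had spreads between 0.068 (KLF13) and 0.77 (KLF7), with adjusted p of 0.108 or more by edgeR.

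Across CX-5461 labelled 10, 30 and 120 min 2 of the 10 were called, against 1.09% of all genes (168 genes, 65 without CX-5461 labelled 10 min replicate 1 and 300 without control replicate 1). These were KLF6 (spread 2.0) and KLF9 (spread 2.05), which held the lowest and the highest level in the group labelled 10 min. That group holds the values the family was chosen on, so the spreads are a description and nothing is read from the count. KLF13 had a spread of 0.56, under the limit of 1, and its adjusted p passed in the model described but missed the threshold in 15 of 23 alternatives, the replicate block among them. KLF9 missed the adjusted p when either library of that group was left out. The change of the difference between the compounds with the label was fitted as an interaction, in which 1 of the 10 members was called, against 0.921% of all genes (142 genes, 49 without RBI2 labelled 10 min replicate 1 and 412 without control replicate 1). This was KLF6, whose RBI2 to CX-5461 difference was 1.35 at the label 10 min, 0.30 at 30 min and 0.56 at 120 min (spread 1.05). The 10 min difference rests on the CX-5461 libraries the family was chosen on, so this too is a description. The call was lost on leaving out either the CX-5461 library labelled 10 min, replicate 2, or its RBI2 counterpart, replicate 1. KLF9 had an interaction spread of 1.76 and was not called.

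Other genes of the pathway were counted in lists. The rest of the SP and KLF family holds 17 genes, of which 9 passed the filter on low counts, and edgeR's test called 0 of these in all 12 comparisons. The partners and upstream factors, which hold the corepressor genes CTBP1, CTBP2, SIN3A and SIN3B, the deacetylase genes HDAC1 and HDAC2, ubiquitin ligase genes that act on KLF5 (WWP1 and FBXW7) and the MAP2K5, MAPK7 and MEF2 genes upstream of KLF2 and KLF4, were all 13 tested, and 0 were called in all 12 comparisons. Of all genes 5.31% were called in at least 1 of the 12, so that a count of 0 among 9 or 13 genes is near the background.

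Among 9 genes known as direct targets of a KLF, all of which were tested, 3 were called in at least 1 of the 12 comparisons, against 5.31% of all genes. This list was chosen with earlier results of these libraries known. Its count and the values of its genes are therefore descriptions, and nothing is read from them. SMAD7, an inhibitor of TGF-beta signalling, had a mean of 34.1 CPM in RBI2 labelled 10 min and of 9.10 CPM in the control (log2 fold change 1.90 ± 0.121). It stood at 13.7 CPM in CX-5461 labelled 10 min. CDKN1A, the p21 cell cycle inhibitor and a known target of KLF4 and KLF6, had a mean of 21.3 CPM in the control and of 44.8 CPM with CX-5461 labelled 10 min (log2 fold change 1.06 ± 0.148), in the contrast on which the family was chosen. TXNIP, a regulator of redox state and glucose uptake, was called in the interaction alone (spread 1.01), which uses the same CX-5461 libraries. The SMAD7 call against the control was lost with the libraries of the comparison alone. That of CDKN1A was lost in 4 of 23 alternatives, the corrections for GC content and length and the loss of control replicate 2 among them, and that of TXNIP in 16 of 23.

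The patterns of the members over the 7 group means of log2 CPM were compared with each other and with all other genes, as a description over 7 points that share libraries. KLF3 and KLF5 were the most alike pair of members (Pearson's r = 0.949), KLF10 and KLF11 had r = 0.877, and KLF6 and KLF9 were opposed (r = -0.934). The genes most like KLF6 were ARHGEF39 (r = 0.996), HILPDA (0.985) and CDC42EP2 (0.985), which stood at 10.4, 10.1 and 54.0 CPM in the control and at 6.81, 6.18 and 16.1 CPM in CX-5461 labelled 10 min. The genes most like KLF9 were FOSB (0.969), MXD1 (0.967) and OTUD5 (0.967), at 1.77, 8.94 and 43.7 CPM in the control and 10.2, 15.2 and 49.9 CPM in CX-5461 labelled 10 min.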

How the data were processed

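Reads were assigned to GRCh38 transcripts by the authors with Salmon 1.3.0, after reads of the rDNA repeat had been taken out. The deposited estimated counts, TPM values and effective lengths per transcript were used. Of 228754 transcripts, 225662 had an identifier in GENCODE release 44, and the unmatched ones held 1.03% to 1.13% of the reads of a library. Estimated counts were summed per gene over 60876 genes and rounded. Genes were kept with filterByExpr (minimum count 10), scaled with TMM and tested in 1 model of all 14 libraries with edgeR 4.0.16 in R 4.3.3, adjusted over 15426 genes by the Benjamini-Hochberg method. The standard error is the log2 fold change divided by the square root of F. TPM values, as deposited by the authors, were summed per gene to compare levels between genes.

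The members and lists were chosen with earlier results of these data known. All 10 members are named, and values of listed genes are given only for those that were called. For members called against the control, the 3 most correlated genes with at least 5 CPM in their highest group are named. Alternatives were DESeq2 1.42.0 and its size factors, TMM without mitochondrial genes, no filter, no fold limit, an unadjusted p, a transcript length offset, GC content and length (splines with 5 degrees of freedom), the replicate number as a block, the libraries of the comparison alone and each library left out. KLF7 and KLF13 overlap other genes on the same strand, which held under 1 read on average, and other overlaps are on the opposite strand. The library kit keeps the strand, but the strand setting of the counting is not given in the sources used here.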

Additional observations from a re-analysis of the deposited data

Results flagged for a closer look

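KLF6 differed between the compounds in the groups labelled 10 min, by 1.35 on the log2 scale for RBI2 over CX-5461, and the spread of its difference between the compounds over the labels was 1.05. Both values rest on the CX-5461 libraries on which the family was chosen and are descriptions. KLF9 differed between the compounds in the other direction, by -1.36, on 60 and 64 reads with CX-5461 and 19 and 24 reads with RBI2.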

How the results depend on the processing

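For 18 pairs of a member and a comparison past the adjusted p, 414 values were computed over 23 alternatives, those that only relax the limits left out, 14 of them with a library left out. Of these 330 kept their direction and their side of the threshold, 83 kept the direction only, and 1 reversed (KLF13, RBI2 labelled 120 min against the control, -0.016 with the transcript length offset). Without the fold limit, 1 member passed in RBI2 labelled 10 min against the control (0.201% of all genes), 2 in RBI2 labelled 120 min (18.0%), 6 in CX-5461 labelled 10 min (4.77%) and 2 between the compounds at 120 min (16.1%). With only the libraries of the comparison in the model, where fewer samples set the spread, 0 passed in CX-5461 labelled 10 min against the control (0.0208% of all genes) and 2 in the interaction (2.39%). Across CX-5461 3 passed without the fold limit (2.87% of all genes), with an unadjusted p (3.43%), without the filter on low counts (1.86%) and with the libraries of the comparison alone (1.13%). An unadjusted p gave 1 in CX-5461 labelled 30 min (2.15% of all genes), 1 between the compounds at 30 min (1.45%) and 3 in the interaction (4.58%), and no filter on low counts gave 1 (1.18%), 1 (0.573%) and 2 (2.08%). DESeq2 (0.979% of all genes) and the transcript length offset (0.674%) each called 1 member between the compounds at 10 min. The causes of these changes were not tested. With a library left out, the members called were 1 to 2 in CX-5461 labelled 10 min against the control, 0 to 1 in CX-5461 labelled 30 min (KLF7, without control replicate 1, where the genes called over all went from 0 to 1143), 1 to 2 between the compounds at 10 min, 0 to 1 across RBI2, 1 to 3 across CX-5461 and 0 to 2 in the interaction (KLF7 joined in both when either control replicate was left out). A group with 1 library left is assumed to vary like the others. By protein-coding TPM 6 members kept their place in the order of the control. The number that kept it was not the same in every group, and in CX-5461 labelled 10 min KLF13 moved from place 3 to place 8.

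Same-numbered libraries did not deviate together (correlations of -0.179 to 0.18 over 21 pairs of groups, 3 over 0.1), although 10 of 14 libraries correlated best with their own number. The deviations of the 2 libraries of a group mirror each other, so both give the same outcome and the 14 are not separate observations. With the replicate block, 2 members were called in CX-5461 labelled 10 min against the control, as without it, and the member counts of the other 11 comparisons were also as without it, but KLF13 across CX-5461 missed the adjusted p (0.0701 by edgeR). 2 libraries per group and, for KLF7 and KLF9, few reads per library limit these comparisons.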
